A study of Mus musculus with 2 samples.

Results

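The genes examined here make cholesterol, move it out of the cell, and store or break down fat. They are 39 mouse genes chosen by name. Of these, 16 are enzymes of cholesterol synthesis and 5 are regulators of the response to sterols. A further 6 belong to the liver X receptors (LXR) and cholesterol efflux. The others are 4 of fatty acid synthesis and desaturation, 4 of fatty acid uptake and binding, and 4 of lipid storage and release. All 39 had probes, 51 of the 39386 probes kept, and they are 39 of the 20642 genes with a named probe. RNA came from red pulp macrophages of the mouse spleen, sorted as F4/80-positive and CD11b-low after collagenase digestion and red blood cell lysis. The compared groups were SIRPα-KO mice, which lack the inhibitory receptor SIRPα, and WT mice. Each genotype was a pool of cells from 5 mice, depleted of globin RNA and read on 1 one-colour array. The sources used here do not give the strain, age or sex of the mice or the kind of deletion.

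Cells make cholesterol from acetyl units through mevalonate and squalene, and the transcription factor SREBP2 switches this pathway on when sterols run low. When sterols are plentiful, INSIG proteins hold SREBP and its escort SCAP in the endoplasmic reticulum, and oxidised sterols activate LXR, which drives the efflux pumps ABCA1 and ABCG1. Macrophages take up much of their cholesterol and fat by engulfing other cells, and red pulp macrophages engulf aged red blood cells, whose membranes are rich in cholesterol.

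Each genotype had 1 array, so no test across samples was possible, differences carry no replicate check, and precision is limited by the number of arrays. Differences are log2 values, SIRPα-KO by label minus WT, after each array was scaled to its own 75th percentile. The value after ± is the scanner software's signal error carried to the log2 difference, which covers spot measurement and not animals or pools. A gene was called higher or lower at 2-fold, that is 1 on the log2 scale, and counted as measured if 1 or both arrays read its probe well above background. Both arrays were read in 1 scan. The array labelled SIRPα-KO had 65.3% of probes well above background, against 71.5% on the WT array, and of 4 equal bins of genes by signal, the brightest had a median difference of -0.24 and the others between -0.10 and -0.04. Sirpa, the targeted gene, had a signal of 1006 on the array labelled SIRPα-KO and 795 on the WT array (0.51 ± 0.20), which did not bear out the label. Whether its probe lies in the deleted part is unknown here, and a probe elsewhere in the gene checks nothing. Of 10 red pulp macrophage markers, 9 were measured, of which 4 lay above 0 and 5 below, with a median of -0.15. Cd5l was 2.74-fold higher, and Adgre1, the gene of F4/80, had 10410 on the array labelled SIRPα-KO and 6830 on the WT array (0.78 ± 0.20). Csf1r, Spic, Vcam1 and Slc40a1 differed by less than their error. The differences of Vcam1 and Slc40a1 were -0.21 and -0.15, and those of Hmox1 and Cd163 were -0.32 ± 0.20 and -0.57 ± 0.24. C1qa, which only the WT array read well above background, had one of -0.76 or lower. The summed signal of the 9, before scaling, was 17646 on the array labelled SIRPα-KO and 14084 on the WT array, and most of it came from Adgre1 and Csf1r (Csf1r at 6697 and 6601). Markers of other spleen cells were also read, with their sums given before scaling in the same order. These were 39336 and 45819 for 3 of 5 neutrophil genes, and 13171 and 13274 for 5 platelet genes. For 2 of 4 monocyte genes they were 9519 and 12331, and for 5 T cell genes 6378 and 8617. Most of each sum came from 1 gene, namely Elane (39300 and 45720), Pf4 (12450 and 12240), Vcan (9466 and 12150) and Cd4 (4864 and 6166). The neutrophil gene S100a8 had 32.7 and 86.2, so the sums do not rank the cell types by their RNA. Smaller sums were seen for plasma cells (1625 and 2704), dendritic cells (657 and 1399), erythroid cells (688 and 919) and B cells (470 and 497). After scaling, the sums were higher on the array labelled SIRPα-KO for platelet genes (147.69 and 132.48) and B cell genes (5.27 and 4.96). Those of the other cells named here stayed lower. The part of these cells in the lipid genes was not tested.

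Of the 39 lipid genes, 32 were measured, 29 of them on both arrays. On the array labelled SIRPα-KO, 2 genes were at least 2-fold higher, Abcg1 and Fabp5, against 3.09% of all 15835 measured genes. Sc5d alone was at least 2-fold lower, 1 gene against 5.5% of all genes. At 1.5-fold the counts were 6 higher and 3 lower, against 11.4% and 13.7% of all genes, and at 3-fold 0 either way, against 0.65% and 2.36%. The counts are too small to set the 32 genes apart from genes in general. The 32 genes had a median difference of 0.17 and all measured genes one of -0.09, and 22 of the 32 lay above that all-gene median. Their differences had an SD of 0.55, against 0.61 over all genes. For 9 genes the difference was no larger than its signal error. A difference over 2 times its error was seen for 7 genes in the higher direction and 4 in the lower, or 34.4% of the 32, against 32.2% of all genes.

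**Figure D1:**
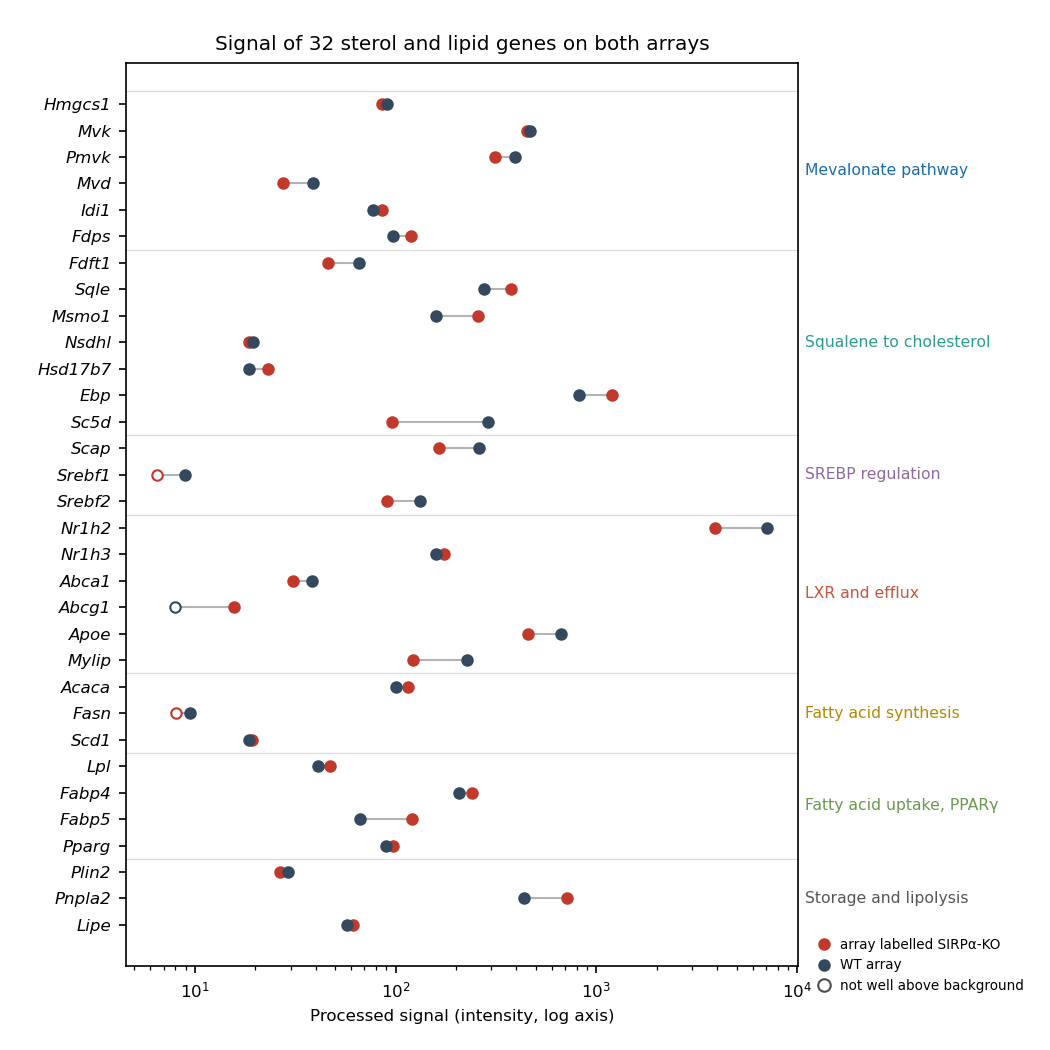
Processed signal (intensity, log axis) of each of the 32 measured genes, grouped by role, 1 point per array. Open points were not well above background. The pairs of points lie close together for most genes, and the widest gap between filled points is that of Sc5d, at 96.4 on the array labelled SIRPα-KO and 288 on the WT array.

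The first 6 enzymes, which build the isoprene units of cholesterol, were all measured and none was 2-fold apart. Fdps, which makes farnesyl diphosphate, had a signal of 119 on the array labelled SIRPα-KO and 96.7 on the WT array, a difference of 0.47 ± 0.21. Idi1, the isomerase before it, had 85.1 and 77.1 (0.31 ± 0.21). Hmgcs1, the synthase at the head of the pathway, had 85.9 and 90.5 (0.09 ± 0.21), less than its error. Mvk, mevalonate kinase, had 453 on the array labelled SIRPα-KO and 467 on the WT array (0.12 ± 0.20), and its further probe, at 14.8 and 22.0, gave -0.40 ± 0.31. Pmvk, the kinase that follows it, had 312 and 393 (-0.17 ± 0.20). Mvd, the decarboxylase, had 27.6 and 38.6 (-0.32 ± 0.24). The median of the 6 genes was 0.11, but it was -0.02 with the mean of a gene's probes and -0.11 with the dimmest probe, so its sign depends on the choice of probe. Leaving out the scaling lowers every gene measured on both arrays alike, which takes this median to -0.06 and that of all genes to -0.26.

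The steps after farnesyl diphosphate differed more from gene to gene, and 7 of the 10 enzymes were measured. Fdft1, squalene synthase, had a signal of 45.9 on the array labelled SIRPα-KO and 66.0 on the WT array (-0.36 ± 0.22). Sqle, the squalene epoxidase that is a control point of the pathway, had 374 and 275 (0.61 ± 0.20). Msmo1, which oxidises the methyl groups at carbon 4, had 258 and 159 (0.87 ± 0.20, or 1.83-fold). Both of these oxygenases were thus above WT by more than 2 times their error but short of the 2-fold limit. Of the other enzymes of methyl removal, Hsd17b7, the reductase, had 23.2 and 18.6 (0.49 ± 0.29), and Nsdhl, its dehydrogenase, had 18.7 and 19.4 (0.11 ± 0.29).

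The last measured pair of consecutive enzymes lay on opposite sides. Ebp, the isomerase that moves the double bond of the sterol ring, had 1200 on the array labelled SIRPα-KO and 817 on the WT array, a difference of 0.72 ± 0.20 or 1.65-fold, and it passed 2-fold in 1 of 9 other settings, quantile normalization. Sc5d, the desaturase that acts on the product of Ebp, had 96.4 and 288, a difference of -1.41 ± 0.21. Sc5d was thus 2.66-fold lower in the SIRPα-KO pool by label, at percentile 3.11 of the differences of all genes. It stayed at least 2-fold lower under each of 9 other settings (-1.58 to -1.12). Ebp and Sc5d were each read by 1 probe, well above background on both arrays, so no second probe bears on them. The settings of probe choice and filter therefore return their reported values by construction, and only the other settings could move them. Over all 16 synthesis enzymes, 13 were measured, with a median of 0.12 and 9 above 0, against 40.4% of all genes. Without scaling, which lowers every gene measured on both arrays alike, that median was -0.045. There 6 lay above 0, against 29.9% of all genes. With and without scaling, 9 of the 13 lay above the all-gene median. Lss, Cyp51 and Dhcr7, which cyclise the ring, remove its carbon 14 methyl group and finish cholesterol, were not well above background on either array.

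**Figure D2:**
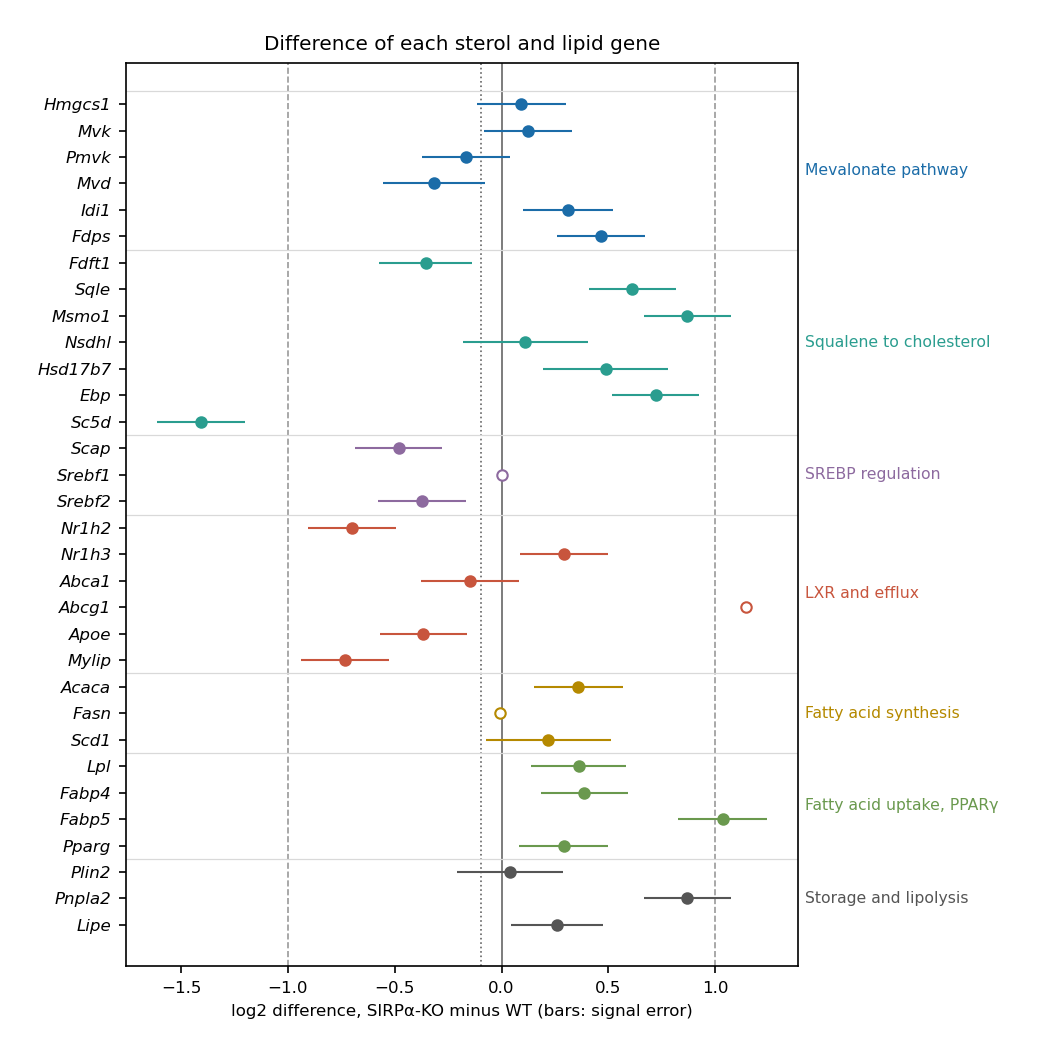
log2 difference (array labelled SIRPα-KO minus WT) of each gene, with bars for the signal error. Dashed lines mark 2-fold, the dotted line the median of all genes at -0.09, and open points genes that were not well above background on 1 array, drawn at their bound without a bar. Sc5d at -1.41 lies outside the lower line, and Abcg1 and Fabp5 outside the upper line.

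The synthesis enzymes share a promoter feature that the choice of genes did not use. RefSeq promoter windows (GRCm38.p6, 250 bases before to 50 after a start) were given for 30 of the 39 genes, among them 13 of the 16 enzymes, and all 13 hold, in 1 or more windows, the letters ATTGG or its reverse complement CCAAT, the box bound by NF-Y, a partner of SREBP at sterol genes. The letters were present for 41.1% of 27025 genes with a window. By window, 13 of the 16 belonging to these enzymes and 37.4% of all 32851 held them. The core of the sterol regulatory element, TCACNCCAC, was found on either strand in 1.44% of genes, and among the 30 lipid genes with a window only Hmgcs1 had it. Only this spelling was searched, so elements spelled otherwise or lying outside the windows would be missed. No match overlapped the other motif. The half-site AGGTCA repeated in the same direction after 4 bases (the form bound by LXR with RXR) or after 1 base (PPAR with RXR), searched on both strands, was absent from the 44 windows of the lipid genes, and 0.0152% and 0.0396% of all windows held the wider and the closer form. These are matches of letters, and binding was not measured. The stretches shown lie before the start and are those of Hmgcs1, which holds both motifs, of Sc5d, the enzyme that was 2-fold lower, and of Msmo1 and Ebp, picked after their values were seen as the enzymes with the largest higher differences. Capitals mark the core element or the CCAAT letters.
Hmgcs1 (chr13:119690184-119690333, plus strand): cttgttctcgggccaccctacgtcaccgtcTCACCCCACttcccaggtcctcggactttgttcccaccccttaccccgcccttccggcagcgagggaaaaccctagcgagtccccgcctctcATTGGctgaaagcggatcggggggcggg
Msmo1 (chr8:64733579-64733678, minus strand): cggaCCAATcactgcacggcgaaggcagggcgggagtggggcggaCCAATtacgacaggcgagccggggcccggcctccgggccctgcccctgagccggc
Ebp (chrX:8193513-8193612, minus strand): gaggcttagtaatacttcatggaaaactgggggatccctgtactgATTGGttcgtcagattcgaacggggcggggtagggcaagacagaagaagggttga
Sc5d (chr9:42264301-42264400, minus strand): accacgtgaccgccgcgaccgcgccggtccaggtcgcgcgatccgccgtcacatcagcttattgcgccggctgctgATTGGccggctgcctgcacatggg

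Msmo1 and Ebp, with the higher signal on the array labelled SIRPα-KO, and Sc5d, with the lower one, therefore all carry the box. Within the stretches shown, in Msmo1 it begins 96 and again 55 bases before the start, in Ebp 55 bases and in Sc5d 24 bases before it.

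Of the regulators of the sterol response 3 of 5 were measured, and none had a difference above 0 at its brightest probe. Scap, the escort of SREBP, had a signal of 165 on the array labelled SIRPα-KO and 259 on the WT array (-0.48 ± 0.21). Srebf2, which encodes SREBP2, had 90.9 and 132 (-0.37 ± 0.21) at its brightest probe. Its further probe, at 65.4 and 63.4, differed by 0.21 ± 0.21, so the probes of Srebf2 disagree in sign. Srebf1, the factor of fatty acid synthesis, was at the limit of detection. It had 6.45 on the array labelled SIRPα-KO, not well above background, and 8.96 on the WT array, and no fold is given because the lowest signals well above background were 8.37 and 7.92. Insig1 and Insig2, the sterol-dependent brakes on SREBP, were not well above background on either array. At all their probes, and those of the other genes not measured, the signal was 1.92 to 5.89 on the array labelled SIRPα-KO and 1.68 to 7.0 on the WT array.

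The LXR and efflux genes were mixed, with 1 of 6 at least 2-fold higher, 0 at least 2-fold lower and 2 of 6 above 0 (median -0.26), against 40.4% of all genes above 0. Abcg1, which passes cholesterol to high-density lipoprotein, had 15.6 on the array labelled SIRPα-KO and 7.94 on the WT array, where it was not well above background. It was 2.21-fold higher (1.14 ± 0.41), within its error of the 2-fold limit and resting on signals near the detection limit. This bound equals the plain ratio, because the lowest WT signal well above background was 7.92. The difference came to 0.27 after normexp background correction, whose offset of 50 by construction shrinks differences between dim signals. Abca1, the pump that loads apolipoprotein A1 and is also an LXR target, had 30.9 and 38.5 (-0.15 ± 0.23), less than its error.

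The LXR genes themselves also stood apart from each other. Nr1h2, which encodes LXRβ, had 3900 on the array labelled SIRPα-KO and 7117 on the WT array, a difference of -0.70 ± 0.20 or 1.62-fold. The difference was -0.41 after quantile normalization, -0.47 after cyclic loess and -0.44 in the authors' deposited table. RefSeq lists a pseudogene of Nr1h2, and whether the probe reads it was not tested. Nr1h3, which encodes LXRα, the form abundant in macrophages, had 174 and 160 (0.29 ± 0.21), and its further probe, at 36.0 and 35.1, gave 0.21 ± 0.23. Nr1h3 is 1 of 2 genes among 7 whose probes shared a sign. Mylip, an LXR target that marks lipoprotein receptors for degradation, had 122 on the array labelled SIRPα-KO and 228 on the WT array (-0.73 ± 0.21), while its further probe, at 10.7 and 11.5, gave 0.06 ± 0.38.

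Apoe, the apolipoprotein that macrophages secrete with cholesterol, was read from 10 spots per array. Its spots had signals from 417 to 497, with a median of 459, on the array labelled SIRPα-KO, and from 623 to 736, with a median of 657, on the WT array. The ranges of spots did not overlap, also after scaling (2.23 to 2.48 and 2.64 to 2.88 on the log2 scale). The difference was -0.37 ± 0.20, or 1.29-fold, and -0.12 after quantile normalization. Spots of 1 array repeat the measurement of 1 pool, so this separation says nothing of the spread between animals.

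All 4 genes of fatty acid uptake and binding, Pparg counted among them, lay above 0, against 40.4% of all genes. Their median was 0.38, and 1 was at least 2-fold higher, against 3.09% of all genes. Of 8 measured uptake genes outside the set, 3 lay above 0, with a median of -0.28. Fabp5, a fatty acid-binding protein of macrophages and skin, had 121 on the array labelled SIRPα-KO and 66.6 on the WT array, a difference of 1.03 ± 0.21 or 2.05-fold. It fell short of 2-fold without scaling and after normexp, where its difference was lowest at 0.72. RefSeq also lists a pseudogene copy of Fabp5, and whether the probe reads it was not tested. Fabp4, the related protein of adipocytes and macrophages, had 241 and 207 (0.39 ± 0.20).

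Pparg, which encodes the fatty acid-sensing receptor PPARγ that drives Fabp4, was the other gene read from 10 spots. Its signals ran from 88.0 to 111.3, with a median of 97.2, on the array labelled SIRPα-KO, and from 79.4 to 97.4, with a median of 88.6, on the WT array. These ranges overlap. After scaling they did not (-0.02 to 0.32 and -0.34 to -0.04 on the log2 scale), and the difference was 0.29 ± 0.21, so the separation of the spots came with the scaling. Lpl, the lipase that releases fatty acids from lipoproteins, had 46.9 and 41.0 at its brightest probe (0.36 ± 0.22), but 25.6 and 47.5 at its further probe (-0.72 ± 0.24). No direction can be given for Lpl, and with its dimmer probe 3 of the 4 genes lie above 0.

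Endothelial cells and adipocytes also make Fabp4 and Pparg, and adipocytes make Lpl. Of 7 endothelial markers 5 were measured, with a summed signal of 2036 on the array labelled SIRPα-KO and 2747 on the WT array. Gpihbp1, which holds Lpl on endothelium, differed by -0.20 ± 0.20. Of 4 adipocyte markers, Adipoq, Cfd and Lep were not well above background on either array. The other one, Plin1, a coat protein of lipid droplets, had 373 on the array labelled SIRPα-KO and 1560 on the WT array, a 3.72-fold lower value (-1.90 ± 0.20). The summed signal of neither list was higher on the array labelled SIRPα-KO. Their part in the values above was not tested, and in bulk RNA fewer cells of a type and less RNA per cell cannot be told apart.

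Genes of fatty acid synthesis were measured for 3 of 4, and none was 2-fold apart. Acaca, acetyl-CoA carboxylase, had 115 on the array labelled SIRPα-KO and 101 on the WT array (0.36 ± 0.21), while its further measured probe, at 19.5 and 24.7, gave -0.17 ± 0.27. Scd1, the stearoyl-CoA desaturase, had 19.3 and 18.6 (0.22 ± 0.29). The median of the 3 was 0.22, and -0.006 with the dimmest probe. The differences of Acaca and Scd1 were of about the size of the error or of the gap between probes. Fasn, fatty acid synthase, had 8.09 and 9.44 and was well above background on the WT array alone, and Scd2 was not well above background on either.

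Among the storage genes, the lipase Pnpla2 stood out. Pnpla2 encodes ATGL, the enzyme that starts the breakdown of stored triglyceride, and had 712 on the array labelled SIRPα-KO and 438 on the WT array (0.87 ± 0.20, or 1.83-fold). It passed 2-fold in 3 of 9 other settings, which were quantile normalization, cyclic loess and the authors' deposited table. Pnpla2 too was read by 1 probe, so the settings of probe choice and filter cannot change it. Lipe, the hormone-sensitive lipase that acts next, had 61.0 and 57.2 (0.26 ± 0.22). Plin2, the droplet coat protein that macrophages gain as they fill with lipid, had 26.5 and 29.0 (0.04 ± 0.25), less than its error. Soat1, which esterifies cholesterol for storage, was not well above background on either array.

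**Figure D3:**
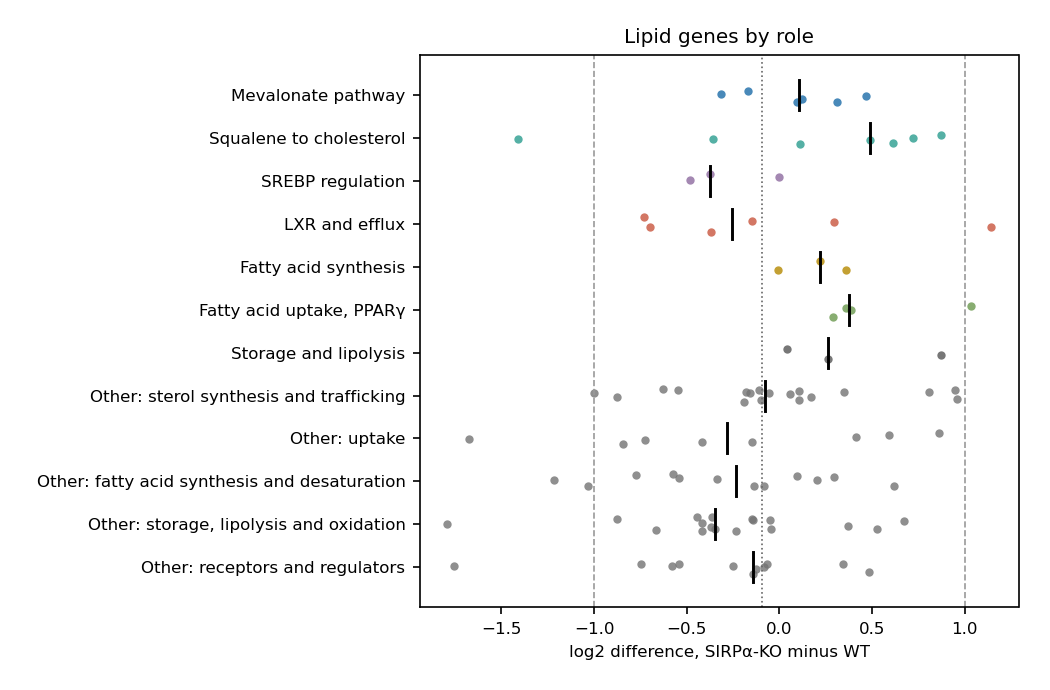
log2 differences (array labelled SIRPα-KO minus WT) of the lipid genes by role, coloured, and of other lipid genes, grey. Each point is a gene, black bars are medians, dashed lines mark 2-fold and the dotted line the all-gene median of -0.09. The coloured uptake genes have a median of 0.38 and the grey ones one of -0.28. The SREBP and LXR groups lie lowest among the coloured groups at -0.37 and -0.26. With each gene's dimmest probe the SREBP and LXR medians were 0.0 and -0.04.

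Of a wider list of 77 lipid genes outside the set, 66 were measured. Of these, 0 passed the upper 2-fold limit and 5 the lower one, against 3.09% and 5.5% of all genes, and 20, or 30.3%, lay above 0, against 40.4% of all genes. Their median was -0.15, against -0.09 for all genes. By role the medians were -0.08 for sterol trafficking, -0.28 for uptake, -0.24 for fatty acid synthesis, -0.35 for storage and oxidation, and -0.14 for receptors and regulators. Rxra, the receptor that pairs with both LXR and PPARγ, had 84.5 on the array labelled SIRPα-KO and 321 on the WT array, 3.38-fold lower (-1.76 ± 0.21), but its further probe, at 89.4 and 119, gave -0.24 ± 0.21. Cpt2, which admits fatty acids to mitochondrial oxidation, had 57.2 and 223 (-1.79 ± 0.21), and its further probe, at 97.3 and 93.8, gave 0.22 ± 0.21. The probes of Cpt2 thus disagree in sign and those of Rxra in size.

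Acly, which makes the cytosolic acetyl-CoA that feeds sterol and fatty acid synthesis, had 1805 on the array labelled SIRPα-KO and 4705 on the WT array (-1.21 ± 0.20), with a further probe at -0.30 ± 0.27. Cd36, the scavenger receptor that imports fatty acids, was 3.19-fold lower, and Fads1, a desaturase of polyunsaturated fatty acids, 2.04-fold lower at signals of 16.0 and 36.6. Osbp, an oxysterol-binding protein, lay just short of the lower limit, at 235 and 527. On the higher side Npc2, which carries cholesterol out of lysosomes, had 736 on the array labelled SIRPα-KO and 429 on the WT array (0.95 ± 0.20). Stard4, a sterol carrier controlled by SREBP2, had 17.9 and 10.4 (0.96 ± 0.35), and Ggps1, which turns farnesyl into geranylgeranyl diphosphate, 103 and 66.5 (0.80 ± 0.21). Osbp, Npc2, Stard4 and Ggps1 were named after their values were seen.

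**Figure D4:**
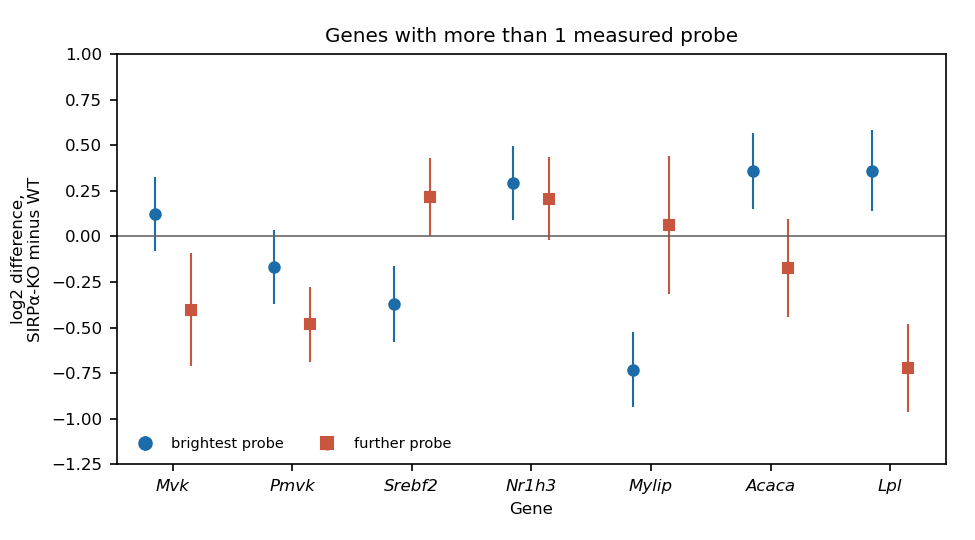
log2 difference (array labelled SIRPα-KO minus WT) at each measured probe of the 7 lipid genes with more than 1, with bars for the signal error. Circles are the brightest probes used above and squares the further ones. In 5 of the 7 genes the probes fall on opposite sides of 0.

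Agreement between probes limits how far single values can be read. Of 11 lipid genes with several probes, 7 had more than 1 well above background on both arrays, and their signs agreed for 2, Pmvk and Nr1h3. Pmvk had -0.17 ± 0.20 at the brighter probe and -0.48 ± 0.21 at the other, with 158 and 248. Over all 2611 such genes, signs agreed for 54.2%, and the median gap between probes was 0.42 on the log2 scale, against 0.53 for the 7. The other 28 lipid genes had a single probe, Sc5d, Abcg1, Fabp5, Msmo1, Ebp and Pnpla2 among them.

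**Figure D5:**
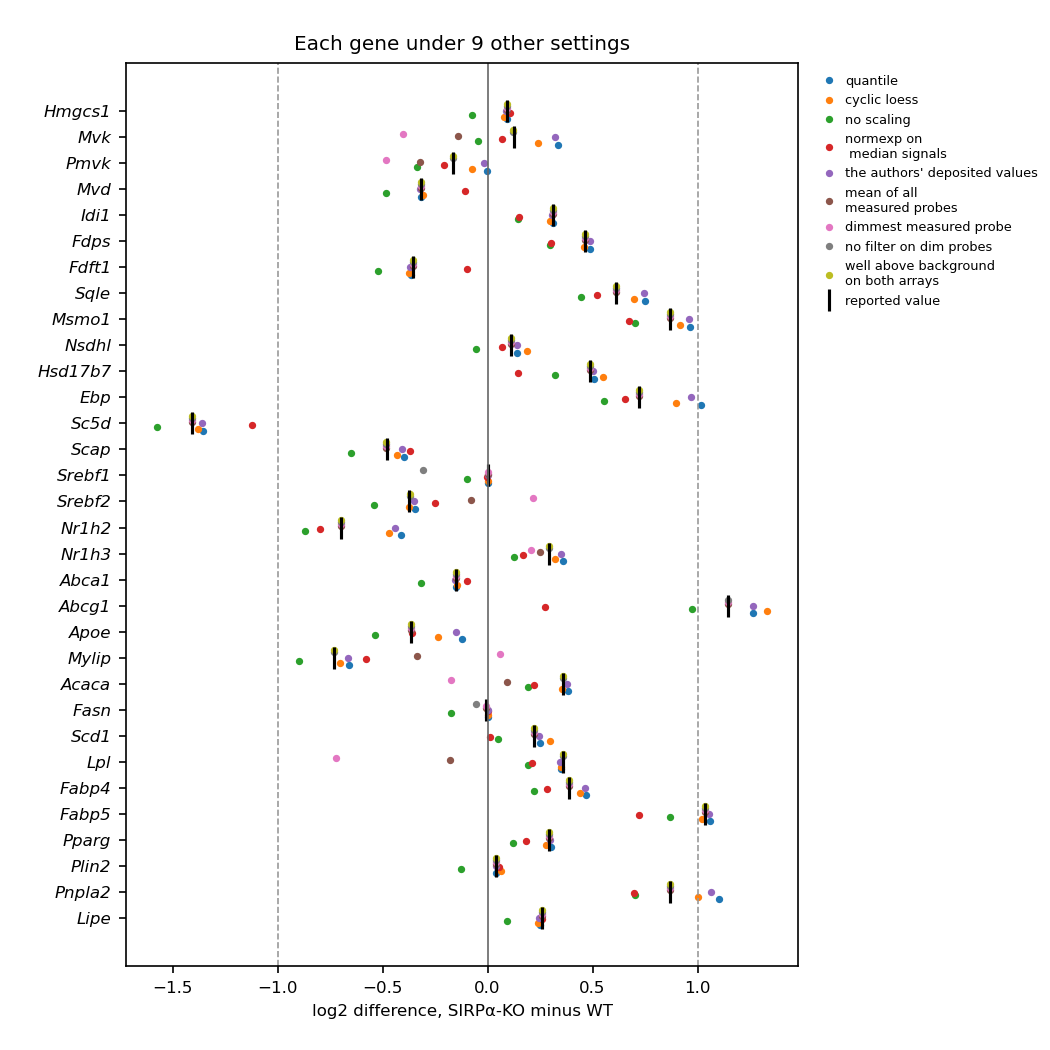
log2 difference (array labelled SIRPα-KO minus WT) of each gene as reported (black bar) and under 9 other settings (8 for Abcg1, Srebf1 and Fasn, which were not well above background on both arrays) of scaling, background correction, probe choice and filter (coloured points), with dashed lines at 2-fold. Sc5d lies beyond the lower line in all 9, and Abcg1, Fabp5, Pnpla2 and Ebp lie on both sides of the upper one.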

How the data were processed

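The deposited scanner tables give spot brightness as intensity, made by the authors with Agilent Feature Extraction 11.0.1.1 on design 26655 (build mm9, per the file headers), which had already subtracted background. A deposited table of log2 values by the authors, with a median of 4.56 in each column, served as an alternative. The sources used here do not give its normalization. Its columns, each sorted, differed by at most 0.184, with a median gap of 0.0. They thus had nearly the same distribution, which quantile normalization also gives. Of 43020 non-control spots, 321 with an outlier flag on either array were left out, none of them of the lipid genes, and no spot was saturated. Each array's log2 processed signal was scaled to its 75th percentile (89.2 for the array labelled SIRPα-KO and 100.2 for WT). Probe accessions were matched, without versions, to RefSeq transcripts of GRCm38.p6, and 27206 of 39386 probes gained a symbol. A probe with several spots counted as well above background on an array if over 0.5 of its spots were. A gene was read from its brightest measured probe. Where only 1 array read the probe well above background, the other array's value was raised, if lower, to the lowest value well above background there, which makes the difference a bound (0 where the sides crossed). Scripts used Python 3.11.15 with numpy 2.4.6 and pandas 2.3.3, and R 4.3.3 with limma 3.58.1. Scripts were checked on simulated arrays, for large changes in bright genes with spot error alone. The lipid genes, the wider list and the markers were chosen with earlier results of these data known. Every lipid gene is reported; of the wider list, those at least 2-fold apart were to be named.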

Additional observations from a re-analysis of the deposited data

How the results depend on the processing

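The count of lipid genes at least 2-fold higher, 2 as reported, was 4 after quantile normalization, 0 without scaling, 0 after normexp, 1 where both arrays had to be well above background, 0 at 3-fold and 6 at 1.5-fold. The 1 lower gene became 0 at 3-fold and 3 at 1.5-fold. The limits, the stricter filter and the missing scaling change these counts by construction. Normexp added an offset of 50 to each corrected signal, which by construction shrinks the log2 differences of dim probes. What else normexp changed, and the cause for quantile normalization, was not tested. The median of the 32 genes ranged from 0.003 without scaling to 0.249 after quantile normalization, and the all-gene median from -0.262 to 0.000. The gap between these medians was 0.265 as reported, and over the other settings it ran from 0.09 after normexp to 0.298 where both arrays had to be well above background, with 0.181 for the mean of probes and 0.19 for the dimmest probe; leaving out the scaling cannot change it. Over all genes, those at least 2-fold higher and lower numbered 490 and 871 as reported, 303 and 1188 without scaling, 674 and 732 after quantile normalization, 102 and 578 after normexp, and 874 and 1647 with no filter on dim probes. Values without a count were taken as moved where they shifted by more than their signal error, for a median the median error of its genes. Single genes moved most often with the dimmest probe, which moved 6 of the 7 genes with more than 1 measured probe. For the rest of the 32 genes the settings of probe choice return the reported value by construction. Normexp on mean signals was not run because the files used here give median signals; normexp on median signals was chosen after seeing the data. No paired analysis was possible because each genotype has 1 array. Signal over background leaves 7 of the 39 genes without a value, and of the 32 measured it leaves Abcg1, Fasn and Srebf1 with a bound or no fold.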
